A study of Mus musculus with 24 samples.

Results

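The genes described are those that build and supply motile cilia: axonemal dynein heavy chains and dynein assembly factors (Dnah and Dnaaf symbols), cilia and flagella associated proteins (Cfap), radial spoke proteins (Rsph), tektins (Tekt), intraflagellar transport proteins (Ift) and Bardet-Biedl syndrome proteins (Bbs), with Foxj1 and Sntn added by name. They were chosen by gene symbol alone, and a gene with several probe sets was read from the one of highest mean. This gave 62 members among 13499 genes measured: 48 motile axoneme genes (23 Cfap, 12 Dnah, 5 Tekt, 4 Rsph and 2 Dnaaf genes with Foxj1 and Sntn) and 14 transport genes (9 Ift and 5 Bbs genes). RefSeq lists 92 gene symbols under the same rule, and those that are not among the 62 were not analysed here.

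Total RNA of the right lung lobe was profiled on one array per mouse in 24 mice of 6 inbred strains. Of these, 17 carried a transgene for TGF-β1, a cytokine that drives matrix deposition (TG), and 7 were wild type (WT). By the series design, C57BL/6J (2 TG and 2 WT mice), A/J and AKR/J (3 TG mice and a single WT mouse in each) are strains prone to fibrosis. The resistant strains are C3H, BALB/cJ and 129, the last labelled S129, again with 3 TG mice and a single WT mouse in each. Every mouse of both genotypes had been given doxycycline for 2 weeks to switch on the transgene, so no group without the drug was available for comparison. The sources used here do not give the promoter that drives the transgene, the ages or the sexes, and the level of the transgene itself was not analysed here. A fibrosis label on each sample carries a key, and by that key the strains called prone and resistant are swapped, which would turn the sign of all prone minus resistant differences. The labels give each mouse its own title and say no more about how mice were bred or housed. Values are log2 intensities, so a difference of 1 is a doubling of intensity.

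Motile cilia are carried by the multiciliated cells of the airway lining and beat to move mucus. Their core, the axoneme, is a ring of microtubule doublets around a central pair. Dynein arms on the doublets drive the sliding, and radial spokes and central pair proteins coordinate it. Foxj1 is the transcription factor that switches on the motile cilium programme, often together with RFX factors, which bind a DNA motif called the X-box. Intraflagellar transport particles and the BBSome carry cargo along cilia of every kind, including the single non-motile cilium of many other cell types.

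Promoter sequence was examined as a description, because RFX factors bind the X-box of ciliary genes. RefSeq promoters (build GRCm38.p6) covering 250 bases before to 50 bases after the gene start were available for 53 of the 62 members. An X-box, spelled GTNNCC, then NNN, then GNAAC, and searched on both strands with no other motif, was matched in 13 of these 53 (24.5%), against 673 of 27025 genes in the whole promoter table (2.49%). The match was held by 10 of 40 motile axoneme genes (25%) and 3 of 13 transport genes (23.1%), so both classes carried it in similar shares. Of the members lower in TG mice over all strains, 4 of 15 with a promoter had a match, against 9 of 38 other members. The promoters below were picked from members with a match and do not stand for the members with the largest differences. No match was found for Dnah8, Dnah2, Dnah9, Cfap43, Cfap74, Tekt2 or Sntn. Each promoter is written on the strand of its gene, with the matched letters in capitals. The promoter of Bbs7 lies at chr3:36613340-36613639 on the minus strand, that of Cfap206 at chr4:34730157-34730456 on the minus strand and that of Tekt4 at chr17:25471340-25471639 on the plus strand. Those of Cfap44 (chr16:44394549-44394848) and Ift57 (chr16:49699044-49699343) are on the plus strand.
Bbs7: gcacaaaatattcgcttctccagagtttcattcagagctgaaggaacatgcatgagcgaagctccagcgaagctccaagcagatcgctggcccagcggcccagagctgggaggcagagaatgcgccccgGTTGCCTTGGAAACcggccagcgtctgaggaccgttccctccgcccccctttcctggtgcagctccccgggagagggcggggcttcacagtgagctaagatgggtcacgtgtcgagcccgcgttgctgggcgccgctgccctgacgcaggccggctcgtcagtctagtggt
Ift57: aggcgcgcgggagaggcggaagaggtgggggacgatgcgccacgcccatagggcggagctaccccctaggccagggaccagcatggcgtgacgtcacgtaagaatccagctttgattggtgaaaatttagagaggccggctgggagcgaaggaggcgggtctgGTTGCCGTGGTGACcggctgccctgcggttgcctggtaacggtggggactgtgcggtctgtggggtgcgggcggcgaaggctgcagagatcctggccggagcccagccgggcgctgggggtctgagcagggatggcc
Cfap206: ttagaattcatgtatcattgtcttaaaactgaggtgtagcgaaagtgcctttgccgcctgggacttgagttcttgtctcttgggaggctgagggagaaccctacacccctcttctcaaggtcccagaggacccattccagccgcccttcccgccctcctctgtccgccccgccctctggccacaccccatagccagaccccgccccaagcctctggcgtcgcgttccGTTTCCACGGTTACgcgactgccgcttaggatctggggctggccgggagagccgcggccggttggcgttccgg
Cfap44: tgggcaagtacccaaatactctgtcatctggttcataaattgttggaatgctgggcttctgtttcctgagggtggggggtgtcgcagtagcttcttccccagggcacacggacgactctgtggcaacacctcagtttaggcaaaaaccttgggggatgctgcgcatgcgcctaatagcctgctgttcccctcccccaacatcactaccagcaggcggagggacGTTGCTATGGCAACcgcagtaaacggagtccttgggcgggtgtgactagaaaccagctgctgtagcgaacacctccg
Tekt4: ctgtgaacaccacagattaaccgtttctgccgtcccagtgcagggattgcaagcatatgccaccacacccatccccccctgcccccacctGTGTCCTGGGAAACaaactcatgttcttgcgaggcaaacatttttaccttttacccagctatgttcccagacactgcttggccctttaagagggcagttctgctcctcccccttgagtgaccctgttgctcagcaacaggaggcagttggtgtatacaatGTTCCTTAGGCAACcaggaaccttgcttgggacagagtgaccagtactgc
The match started at position -23 from the gene start in Cfap206, -27 in Cfap44, -87 in Ift57 and -121 in Bbs7. Tekt4 held 2 matches, at -160 and at 1. A match describes the letters in this window and not a bound site.

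**Figure D1:**
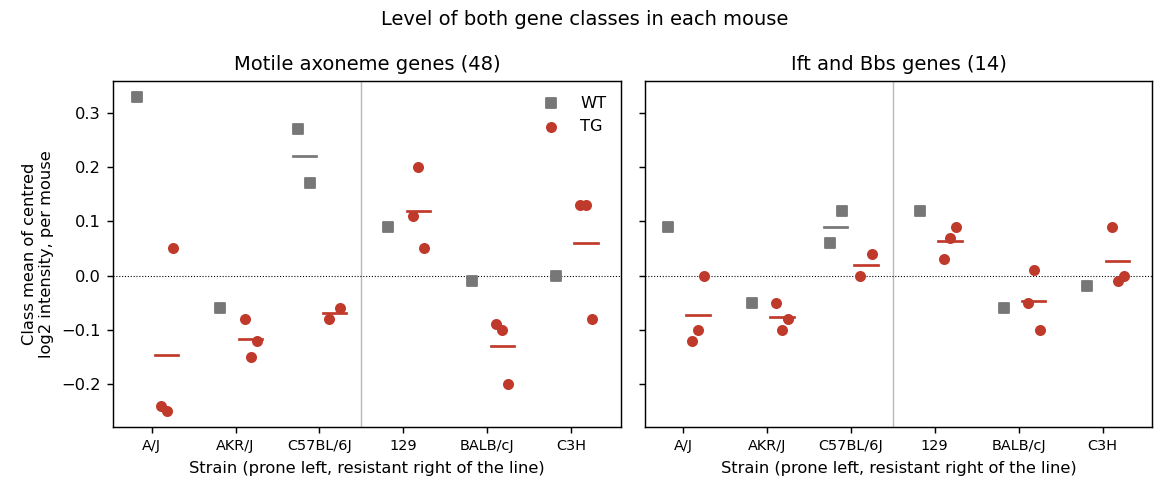
Mean level of the 48 motile axoneme genes (left) and the 14 Ift and Bbs genes (right) in each mouse. Each gene was centred on its mean over 24 mice, squares are WT mice, circles TG mice and short lines group means of more than 1 mouse, and the y axis is in log2 units. The WT mice of A/J and C57BL/6J lie above the TG mice of their own strains in motile level (0.33, 0.27 and 0.17), and the transport genes span a narrower range.

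The level of each class was first followed mouse by mouse, as the mean of its genes after each gene was centred on its own mean over the 24 mice. The motile axoneme genes stood at 0.33 in the WT mouse of A/J and at 0.27 and 0.17 in the 2 WT mice of C57BL/6J. The TG mice of A/J stood at -0.24, -0.25 and 0.05, and those of C57BL/6J at -0.08 and -0.06, so in both strains every TG mouse was below every WT mouse, and TG A/J replicate 3 stood apart from the other TG A/J mice. In AKR/J the WT mouse, at -0.06, was above TG mice at -0.08, -0.15 and -0.12, and in BALB/cJ the WT mouse, at -0.01, was above TG mice at -0.09, -0.10 and -0.20. In 129 the WT mouse stood at 0.09 between TG mice at 0.11, 0.20 and 0.05, and in C3H the WT mouse stood at 0.00 between TG mice at 0.13, 0.13 and -0.08. The transport genes spanned -0.12 to 0.09 in TG mice and -0.06 to 0.12 in WT mice, and the 2 genotypes overlapped over most of that range.

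The first comparison asked whether the cilium genes differed between TG and WT mice once strain was accounted for. Motile axoneme genes were lower in TG mice more often than higher, and transport genes hardly passed the test. In limma, with strain as a fixed effect and Benjamini-Hochberg adjustment over all genes, 18 of 48 motile axoneme genes were lower and 2 were higher at an adjusted p under 0.05. Among all genes, 13.5% were lower and 13.2% higher. Of the 14 transport genes, 1 (Bbs7) was lower and 0 were higher. An unadjusted p under 0.05 in either direction was held by 5 of the 14 transport genes, 27 of 48 motile genes and 36.4% of all genes. The transport share at that cut was thus close to that of all genes. The median change was -0.14 for motile axoneme genes, -0.06 for transport genes and -0.001 for all genes. A negative value was seen in 38 of 48 motile and 11 of 14 transport genes. In bulk tissue, fewer cells of a type and less RNA per cell cannot be told apart. The count of lower motile genes was 6 without the WT mouse of A/J, 9 without strain A/J and 4 without strain C57BL/6J. Dnah8, Dnah2, Cfap74 and Cfap157 were lower in all 3 of these settings, whereas the calls of Dnah9, Rsph4a, Tekt2, Bbs7, Cfap54, Cfap61, Cfap70 and Cfap206 were lost without the WT mouse of A/J. Among transport genes, 0 were lower and 1 was higher without that mouse (Bbs5) and without strain A/J (Ift74).

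Foxj1 itself did not pass the test. Its intensity was 8.48, 8.70 and 8.96 in TG mice (lowest, median and highest of 17) and 8.62, 8.67 and 9.04 in WT mice (of 7), and the genotypes overlapped over most of that range. The difference was -0.07 ± 0.07 (SE, adjusted p = 0.46 in limma). The 2 dynein assembly factors measured, Dnaaf2 and the dim Dnaaf6, act in the cytoplasm before arms reach the cilium, and their differences were 0.01 ± 0.04 and 0.05 ± 0.05.

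Among the dynein heavy chains, the motors of the axoneme, 4 of 12 were lower and 0 higher. Dnah8, an outer arm heavy chain best known from sperm, had 7.02, 8.16 and 8.75 (lowest, median and highest) in TG mice and 7.10, 8.51 and 8.95 in WT mice. Its difference was -0.49 ± 0.11 (SE, adjusted p = 0.0013 in limma), with a lower TG mean in 6 of 6 strains. Dnah9, an outer arm chain of airway cilia, ranged from 8.32 to 9.11 in TG mice and from 8.73 to 9.43 in WT mice, with a difference of -0.33 ± 0.09 (adjusted p = 0.0089). Although the ranges overlapped across strains, the TG mean of Dnah9 was lower in 5 of 6 strains. Dnah2 and Dnah1, of the inner arms, were also lower, by -0.26 ± 0.06 and -0.23 ± 0.07. Dnah5, the other main outer arm chain of airway cilia, had a difference of -0.14 ± 0.09 (adjusted p = 0.32). Dnah7a, Dnah7b and Dnah7c are near copies of one another, so their values (-0.12, -0.02 and -0.13, none past the threshold) are uncertain as to the copy measured.

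The 4 radial spoke genes all had negative values, and 2 of them were lower by the test. Rsph4a, a spoke head protein, had 8.54, 9.05 and 9.48 in TG mice and 9.07, 9.23 and 9.96 in WT mice, a difference of -0.40 ± 0.12 (adjusted p = 0.017). Rsph14 differed by -0.21 ± 0.07 (adjusted p = 0.038), Rsph1 by -0.22 ± 0.10 (adjusted p = 0.096) and Rsph9 by -0.05 ± 0.08 (adjusted p = 0.72). Without the WT mouse of A/J the Rsph4a difference was -0.26.

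The Cfap family supplied the largest number of calls, 10 lower and 2 higher of 23. Cfap65, a protein of the central apparatus, had 9.46, 9.83 and 10.32 in TG mice and 10.10, 10.21 and 10.58 in WT mice. Its difference was -0.38 ± 0.09 (adjusted p = 0.0039), with a lower TG mean in 5 of 6 strains. Cfap43, which helps to tether an inner dynein arm, differed by -0.36 ± 0.09 (adjusted p = 0.006), and all 5 of its probe sets pointed down, with strain-averaged values of -0.32 to -0.39. Cfap74 differed by -0.34 ± 0.07 (adjusted p = 0.001), and its TG mean was lower in 6 of 6 strains, as were those of Cfap43, Dnah2 and Dnah8. Cfap54, a central apparatus protein, and Cfap70 differed by -0.33 ± 0.12 and -0.32 ± 0.12. Cfap61 and Cfap206, at the bases of radial spokes, differed by -0.32 ± 0.11 and -0.31 ± 0.11, and Cfap157, a basal body protein, by -0.29 ± 0.07. The adjusted p-values of Cfap54, Cfap70 and Cfap206 lay between 0.045 and 0.047, and these 3 calls were lost in many of the alternatives described in the closing section. The 2 higher genes were Cfap20dc (0.19 ± 0.05, adjusted p = 0.011, higher in 6 of 6 strains) and Cfap97d1 (0.10 ± 0.04, adjusted p = 0.043). Cfap97d1 has a mean of 4.86, below the lower quartile of all gene means (6.77), so its probe set was dim.

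Lower in all 6 strains held for 4 members, all motile, which is 6.5% of the 62, against 10.3% of all genes. Higher in all 6 strains held for 1 member, against 10.8% of all genes.

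Tektins line the doublet microtubules, and 2 of 5 were lower. Tekt2 had 7.27, 7.76 and 7.97 in TG mice and 7.76, 7.90 and 8.18 in WT mice, a difference of -0.28 ± 0.08 (adjusted p = 0.012), and Tekt4 differed by -0.20 ± 0.07 (adjusted p = 0.047). Sntn, which encodes sentan of the tip of motile cilia, had one of the widest ranges, 8.68, 9.49 and 10.47 in TG mice and 9.31, 10.01 and 10.70 in WT mice. Its difference, -0.39 ± 0.15, fell just short of the threshold (adjusted p = 0.055).

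The transport genes showed smaller values. Bbs7, a BBSome subunit, had 7.93, 8.17 and 8.34 in TG mice and 8.05, 8.38 and 8.53 in WT mice, a difference of -0.16 ± 0.05 (adjusted p = 0.026, lower in 5 of 6 strains). The other BBSome subunits among the members, Bbs1 and Bbs5, had differences of -0.01 ± 0.04 and 0.08 ± 0.05. The chaperonin-like Bbs10 and Bbs12 had -0.02 ± 0.05 and -0.05 ± 0.04. None of the 9 Ift genes passed, and they ran from -0.12 ± 0.05 for Ift57 to 0.07 ± 0.05 for Ift74. Ift88, an anterograde train subunit on which cilium assembly depends, differed by -0.07 ± 0.05 (adjusted p = 0.38), and Ift140, of the retrograde train, by -0.10 ± 0.04 (adjusted p = 0.073). The standard errors of transport genes, 0.04 to 0.05, were no larger than those of most motile genes.

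**Figure D2:**
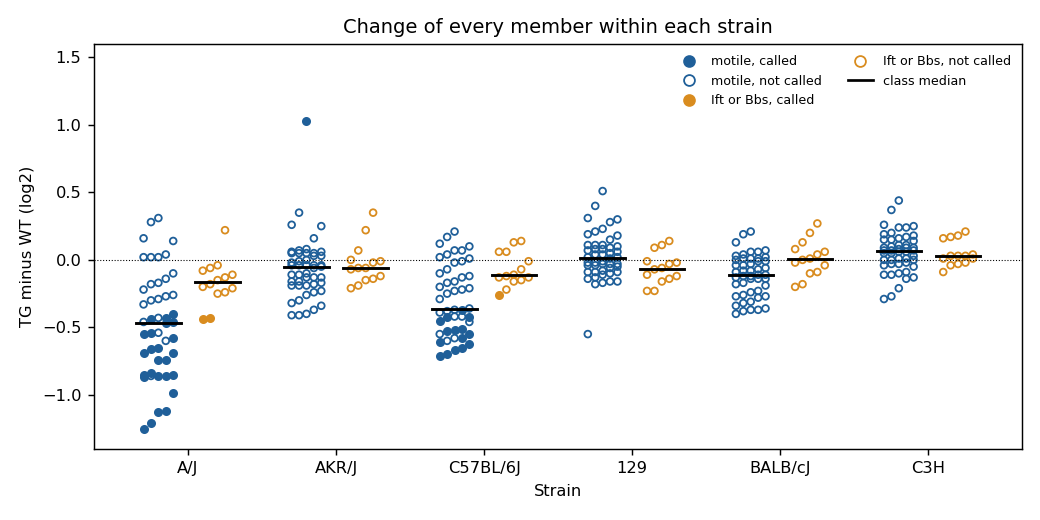
TG minus WT difference (log2) of every member within each strain, motile axoneme genes in blue and Ift and Bbs genes in orange. Filled points passed an adjusted p of 0.05 in limma, open points did not, and black lines are class medians. Calls gather in A/J (28) and C57BL/6J (16), all of them lower, with 1 higher gene in AKR/J.

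The next comparison asked how the difference varied from strain to strain. A/J and C57BL/6J held nearly all of the calls, and every called member was lower there. In A/J, 28 of 62 members were lower and 0 higher in limma's fit of 12 group means, against 8.08% of all genes lower and 14.9% called in either direction. Of these 28, 26 were motile axoneme genes and 2 transport genes, and the class medians were -0.47 and -0.16, against 0.015 for all genes. In C57BL/6J, 16 members were lower (15 motile and Bbs7), against 7.39% of all genes lower and 14.3% in either direction, with medians of -0.37 and -0.11. The strains shared 15 called members, which is 15 of 28 in A/J and 15 of 16 in C57BL/6J. The A/J values rest on 1 WT mouse, which is assumed to vary like other mice, and the C57BL/6J count was 5 without WT replicate 1.

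In A/J, every TG mouse was below the WT mouse for 39 of 48 motile and 11 of 14 transport genes, which is 50 of 62 members in all, against 31% of all genes. In C57BL/6J, both TG mice were below both WT mice for 41 members, against 30.6% of all genes. The number was 31 members in AKR/J (25.2% of all genes), 30 in BALB/cJ (30.4%), 17 in 129 (35%) and 4 in C3H (28.2%).

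The largest A/J differences were those of Sntn, Dnah8 and Rsph4a. Sntn was 10.70 in the WT mouse and 8.95, 9.21 and 10.18 in TG mice, a difference of -1.25 ± 0.33 (adjusted p = 0.015). Dnah8 was 8.81 in the WT mouse and 7.30, 7.87 and 7.62 in TG mice (-1.21 ± 0.22, adjusted p = 0.0015). Rsph4a was 9.96 in the WT mouse and 8.67, 8.54 and 9.30 in TG mice (-1.13 ± 0.23, adjusted p = 0.0033). For Sntn and Rsph4a, TG replicate 3 lay between the other TG mice and the WT mouse, and for Dnah8 the 3 TG mice stood together. Foxj1 was also lower in A/J, with 9.04 in the WT mouse and 8.48, 8.62 and 8.82 in TG mice (-0.40 ± 0.13, adjusted p = 0.044). Cfap206 (-1.12 ± 0.20), Cfap43 (-0.99 ± 0.16) and Dnah9 (-0.87 ± 0.17) were lower as well. The 2 transport genes called were Ift57, a subunit of the anterograde train (-0.44 ± 0.11, adjusted p = 0.013), and Bbs7 (-0.43 ± 0.08, adjusted p = 0.0022). The other 12 transport genes ran from -0.25 for Ift88 to 0.22 for Ift20.

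In C57BL/6J, Rsph4a was 9.83 and 9.72 in WT mice and 8.98 and 9.16 in TG mice (-0.71 ± 0.20, adjusted p = 0.026). Cfap65 was 10.58 and 10.44 in WT mice and 9.80 and 9.83 in TG mice (-0.70 ± 0.15, adjusted p = 0.0049). Cfap43 was 9.88 and 9.72 in WT mice and 9.17 and 9.08 in TG mice (-0.67 ± 0.13, adjusted p = 0.0029). In each of these genes the genotypes were well apart, by more than the spread between mice of a genotype. Bbs7 was 8.45 and 8.46 in WT mice and 8.18 and 8.21 in TG mice (-0.26 ± 0.07, adjusted p = 0.024). Foxj1 was 8.99 and 8.85 in WT mice and 8.74 and 8.52 in TG mice, without overlap, yet did not pass (-0.29 ± 0.11, adjusted p = 0.099). Dnah8 differed little between genotypes in this strain, with 7.10 and 7.42 in WT mice and 7.03 and 7.02 in TG mice. These were the lowest Dnah8 values of the WT mice and of the TG mice, and the difference there did not pass (-0.23 ± 0.19, adjusted p = 0.49).

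**Figure D3:**
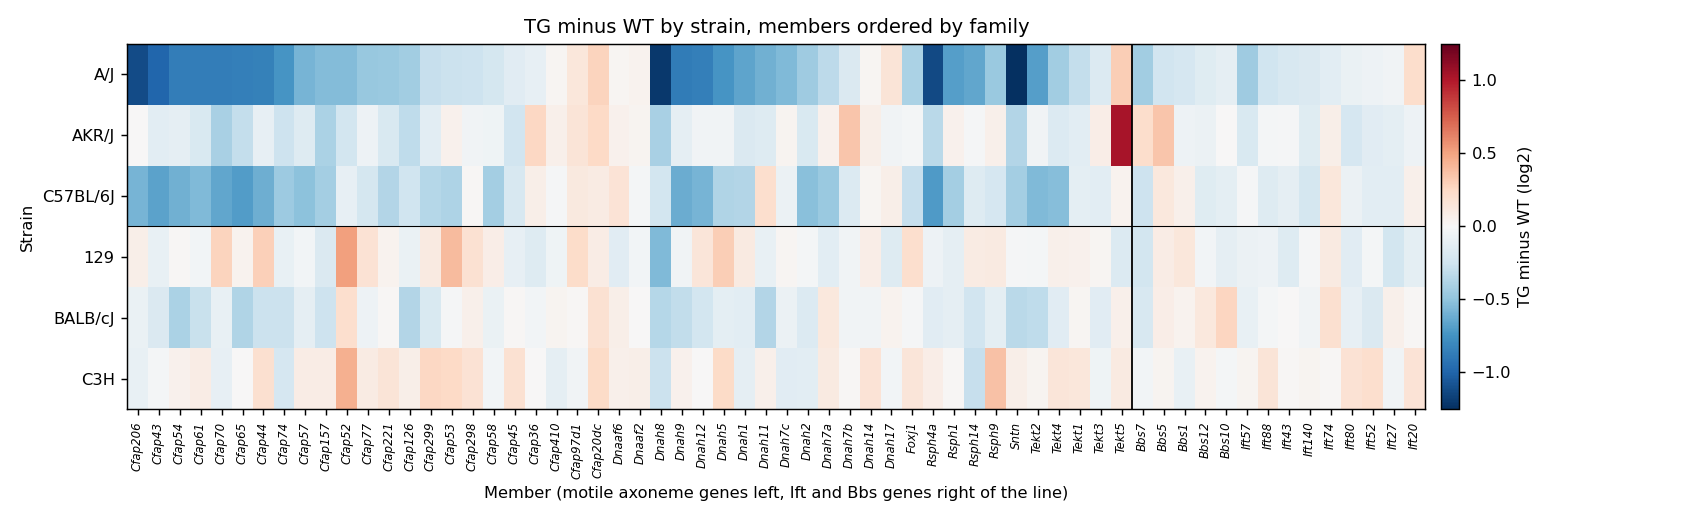
TG minus WT difference (log2) of each of the 62 members (columns, ordered by family) in each strain (rows), blue for lower and red for higher in TG mice. The A/J and C57BL/6J rows are mostly blue across the motile axoneme genes, and the single dark red cell is Tekt5 in AKR/J.

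In the other 4 strains hardly any member passed. In AKR/J 1 member was called, and it was higher, against 1.54% of all genes higher and 2.11% called in either direction. This was Tekt5, a tektin best known from sperm, at 8.64 in the WT mouse and 9.71, 9.64 and 9.67 in TG mice (1.03 ± 0.17, adjusted p = 0.0032). The Tekt5 difference rests on 1 WT mouse, and the WT mouse of A/J was as low (8.68). The WT mouse of 129, at 9.54, was near the TG mice of AKR/J. In 129, BALB/cJ and C3H, 0 members passed in limma, against 2.95%, 2.26% and 0.822% of all genes. An unadjusted p under 0.05 was held there by 5, 4 and 1 of the 62 members. These are smaller shares than the 16.9%, 14.7% and 9.45% of all genes at that cut. The medians of motile axoneme genes were -0.06 in AKR/J, -0.11 in BALB/cJ, 0.01 in 129 and 0.06 in C3H, and those of transport genes -0.06, 0.01, -0.07 and 0.03. The prone strain AKR/J was therefore closer to the resistant strains than to A/J and C57BL/6J in its motile median, and C3H and 129 had positive medians.

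**Figure D4:**
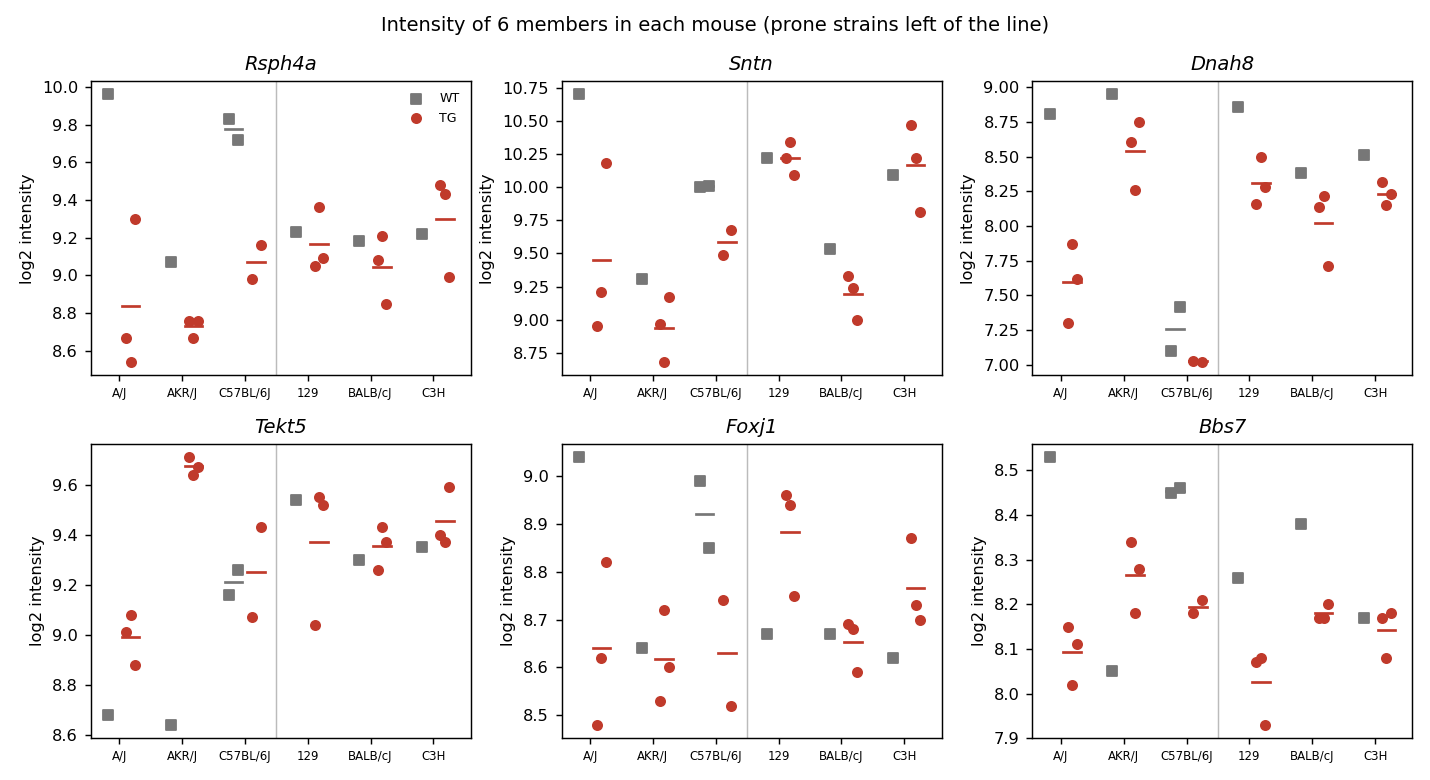
Log2 intensity of Rsph4a, Sntn, Dnah8, Tekt5, Foxj1 and Bbs7 in each mouse by strain, with WT mice as grey squares, TG mice as red circles and group means of more than 1 mouse as lines (each panel has its own y axis). Rsph4a is high in the WT mice of A/J and C57BL/6J (9.96, 9.83 and 9.72) and at most 9.48 in all other mice. Dnah8 is low in C57BL/6J of both genotypes, and in AKR/J the lone WT mouse lies below the TG mice in Tekt5.

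A count of calls per strain does not show that strains differ, so the differences between strains were tested directly. With an F test of 5 differences in limma, 0 of 62 members passed, with 23 at an unadjusted p under 0.05. Of all genes 1.34% passed, and 14.6% had an unadjusted p under 0.05. The 4 members of smallest p were Bbs7 (adjusted p = 0.058), Cfap43 (0.074), Tekt5 (0.076) and Dnah5 (0.079). Dnah5 was 9.59 in the WT mouse of A/J against 8.74, 8.74 and 9.07 in TG mice, whereas in C3H it was 9.06 in the WT mouse and 9.42, 9.44 and 9.02 in TG mice. Bbs7 was higher in all TG mice of AKR/J (8.34, 8.18 and 8.28) than in the WT mouse (8.05), opposite to A/J. Without TG A/J replicate 3, the mouse that stood nearest to WT levels, 13 members passed, all of them motile axoneme genes, among them Cfap43, Rsph4a, Dnah9 and Sntn. Weighting arrays by their quality also gave 13. The share of all genes that passed in these settings is not given here, so the counts are not read as particular to the members.

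The transgene's effect was next averaged over the 3 prone and over the 3 resistant strains. The median over motile axoneme genes was -0.28 in prone and -0.03 in resistant strains, and over transport genes -0.11 and 0.01. The prone average joins unlike strains, with motile medians of -0.47 in A/J, -0.37 in C57BL/6J and -0.06 in AKR/J. Resistant BALB/cJ had -0.11. Tested gene by gene, the difference of the effects passed for 0 of 62 members in limma, with 30 at an unadjusted p under 0.05. Of all genes 0.474% passed, and 11.5% had an unadjusted p under 0.05. These shares belong to the main fit, and the share of all genes under the next settings is not given here. The count was 13 without TG A/J replicate 3 and 13 with array weights.

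Among TG mice alone, the levels of 27 of 62 members differed between the 6 strains (limma F test), against 31.4% of all genes. Of these, 23 were motile axoneme genes and 4 transport genes. Dnah8 differed most clearly (adjusted p = 7.1e-05), from 7.03 and 7.02 in C57BL/6J to 8.61, 8.26 and 8.75 in AKR/J. The WT mice of these strains differed in the same direction, with Dnah8 at 7.10 and 7.42 in C57BL/6J and 8.95 in AKR/J. Ift57 followed (adjusted p = 0.00013), at 8.20, 8.24 and 8.51 in A/J and 8.36, 8.27 and 8.34 in AKR/J, below 8.76, 8.88 and 8.85 in 129 and 8.93, 8.83 and 8.82 in C3H. Among WT mice Ift57 was 8.51 in AKR/J and 8.90 in 129, whereas the WT mouse of A/J, at 8.76, was above those of BALB/cJ (8.61) and C57BL/6J (8.56 and 8.66). Cfap298, needed for dynein arm assembly (adjusted p = 0.00027), was highest in 129, at 9.27, 9.40 and 9.19, and lowest in AKR/J, at 8.82, 8.75 and 8.76. Tekt4 and Sntn (both adjusted p = 0.0018) and Ift80 of the anterograde train (adjusted p = 0.002) completed the 6 members of smallest p. Ift80 was lowest in AKR/J, at 8.22, 8.07 and 8.17.

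Setting the TG mice of prone strains against those of resistant strains, 12 members were lower and 1 higher, 21% of the 62 against 11.1% of all genes (4.69% lower and 6.44% higher). The 10 motile axoneme genes among them all had a lower mean over the prone strains. Sntn (-0.53 ± 0.14, adjusted p = 0.019), Dnah8 (-0.47 ± 0.09, adjusted p = 0.0035), Cfap206 (-0.34 ± 0.08, adjusted p = 0.013) and Tekt4 (-0.33 ± 0.06, adjusted p = 0.001) had the largest values. WT levels do not enter this contrast. The TG mean of Dnah8 was highest in prone AKR/J (8.54), and in C57BL/6J the WT mice were low too (7.10 and 7.42). Cfap206 in AKR/J was 8.57 in the WT mouse and 8.58 on average in TG mice. Among the transport genes, Ift57 (-0.32 ± 0.05, adjusted p = 0.00031) and Ift52 (-0.17 ± 0.05, adjusted p = 0.028) were lower and Ift27 (0.12 ± 0.04, adjusted p = 0.042) was higher. For no member did the prone TG mice lie wholly apart from the resistant TG mice, against 0.126% of all genes. With the strain as the unit, 3 values against 3, 0 members passed in limma, with 4 at an unadjusted p under 0.05, so the result speaks of these 6 strains. The count was 6 without TG C57BL/6J replicate 1 and 24 without TG A/J replicate 3.

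Other genes of motile cilia moved with the members. Secretory cell genes of the airway lining shared the high WT levels of A/J and C57BL/6J, but their medians were also low in AKR/J and BALB/cJ. A list of ciliated cell genes outside the rule, such as dynein docking and spoke-linker genes, had 35 of 50 genes measured, of which 13 were lower and 0 higher over all strains (median -0.16). They included Ak8 (-0.51 ± 0.07), an adenylate kinase of cilia, Cdhr3 (-0.39 ± 0.09), a cadherin of ciliated cells, and Spata18 (-0.37 ± 0.11). In A/J 25 of the 35 were lower (median -0.64) and in C57BL/6J 16 (median -0.40). In the tests across strains, 5 of the 35 passed for strain dependence of the effect and 4 for the difference between prone and resistant strains, against 1.34% and 0.474% of all genes. The mean level of this list ran from 8.20 to 8.70 in TG mice and from 8.49 to 8.91 in WT mice, and the WT mice of A/J and C57BL/6J were the highest. Club and goblet cell markers, genes of the secretory cells beside the ciliated ones, had 12 of 17 measured, 6 lower and 1 higher (median -0.30). Gabrp (-1.24 ± 0.10), Aldh1a7 (-0.89 ± 0.07) and Scgb3a2 (-0.65 ± 0.14) fell most. The medians of this list were -0.75 in A/J, -0.22 in C57BL/6J, -0.46 in AKR/J, -0.49 in BALB/cJ, -0.16 in C3H and 0.15 in 129. Its mean level ran from 10.07 to 10.77 in TG mice and from 10.10 to 11.23 in WT mice. The WT mouse of A/J stood at 11.23 and those of C57BL/6J at 11.04 and 11.06. The part of airway tissue content in the changes of the members was not tested. No probe set on such an array reads 0, so no marker of any list can be said to be absent.

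Of genes that control the formation of many cilia, 16 of 23 listed were measured, with 4 lower and 3 higher. Gmnc, an early switch of the multiciliated fate, was lower (-0.99 ± 0.09, adjusted p = 6e-08), while Stil (0.36 ± 0.10) and Plk4 (0.23 ± 0.06), centriole duplication genes that dividing cells also use, rose. Transport genes under other symbols had medians near 0, without the lean of the Ift and Bbs genes to negative values (11 of 14). Negative values were seen in 7 of 15 intraflagellar transport genes and 9 of 18 BBSome partner and transition zone genes. Intraflagellar transport genes outside the Ift symbol had 15 of 20 measured, 3 higher and 1 lower (median 0.01), with Dync2li1 (0.31 ± 0.05), Wdr35 (0.23 ± 0.04) and Kif3b (0.14 ± 0.03) higher. BBSome partners and transition zone genes had 18 of 28 measured, 1 higher (Ttc8, 0.20 ± 0.05) and 2 lower (Arl3, -0.20 ± 0.04, and Mks1, -0.13 ± 0.05).

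Markers of other cells were read over all strains in the same fit. Heart muscle markers, whose source in these samples was not tested, were lower for 6 of 7 measured genes (median -0.75). Endothelial markers were lower for 7 of 7 (median -0.46). Macrophage markers were higher for 5 and lower for 1 of 10 (median 0.23), and fibroblast and smooth muscle markers higher for 2 and lower for 5 of 9 (median -0.20). Basal cell markers were higher for 1 and lower for 2 of 9 (median 0.02), alveolar type 2 markers higher for 1 and lower for 1 of 9 (median -0.01), and alveolar type 1 markers lower for 1 of 8 (median -0.08). The heart muscle list was highest in the WT mouse of A/J (0.78 above its mean over mice), and its part in the A/J values was not tested.

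**Figure D5:**
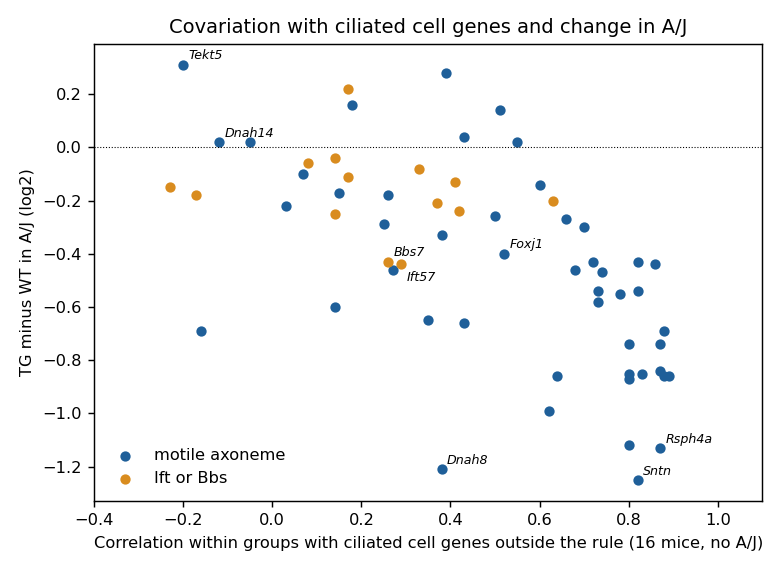
For each member, the correlation with the ciliated cell list within groups of mice outside A/J (x axis, Pearson, 16 mice) and the TG minus WT difference in A/J (y axis, log2), motile axoneme genes in blue and Ift and Bbs genes in orange. Members with a correlation over 0.8 are all motile, and Dnah8 combines a large A/J difference with a correlation of 0.38.

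Covariation between mice of the same group was described by correlating each gene's deviations from its group mean with those of the ciliated cell list, over the 19 mice of groups with at least 2 mice. The points share mice and arrays, and a group's deviations sum to 0, so the values are descriptive. The median correlation was 0.71 for motile axoneme genes, 0.32 for transport genes and 0.02 for all 13464 genes outside the list, members included. It was over 0.8 for 18 of 48 motile genes (37.5%), 0 of 14 transport genes and 0.616% of those 13464 genes. Without the A/J mice (16 mice) the medians were 0.63, 0.22 and 0.03, with 11 of 48 motile genes over 0.8. Over 19 mice, Rsph1 (0.95), Cfap44 (0.94) and Rsph4a (0.93) followed the list most closely, and Foxj1 had 0.69. At the other end stood Dnah14 (-0.42), Tekt5 (-0.31) and Ift140 (-0.28), with Dnah8 and Bbs7 both at 0.24. Correlations with the club and goblet list over the same 19 mice were 0.44 for Rsph1, 0.62 for Cfap44, 0.65 for Rsph4a and 0.10 for Foxj1. The highest were those of Bbs1 (0.88, against 0.56 with the ciliated list) and Cfap126 (0.82, against 0.81). Covariation of the members was thus not confined to the ciliated list.

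Probe set intensity depends on the probes, so levels were not ordered between genes. Gene means ran from 4.86 (Cfap97d1) to 10.02 (Cfap65) in Cfap, 4.63 (Dnah14) to 9.81 (Dnah12) in Dnah, 7.18 (Rsph14) to 9.15 (Rsph4a) in Rsph and 6.25 (Tekt3) to 9.29 (Tekt5) in Tekt. In the transport class they ran from 6.87 (Ift74) to 12.11 (Ift20) in Ift and 6.27 (Bbs12) to 8.87 (Bbs1) in Bbs. All gene means had a median of 8.31, and 6 members lay below the lower quartile of 6.77 (Cfap299, Cfap97d1, Dnaaf6, Dnah14, Tekt3 and Bbs12), of which only Cfap97d1 was called over all strains.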

How the data were processed

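The deposited table held values per probe set, on a log2 scale as read from their range (3.41 to 14.75). The sources used here do not give the log base, summarisation, normalisation or software. Per the labels' protocols, fresh lung was homogenised, RNA was column-purified and biotin-labelled target was made with a whole-transcript kit. Array medians lay between 7.759 and 7.835, and the deposited log2 values were not scaled further. The table was held in part. Of 25285 probe sets, 1 was incomplete and left out, 14539 had 1 gene symbol, 781 several and 9964 none. Genes with several probe sets (590) were read from the one of highest mean, which left 13499 genes.

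Tests used limma 3.58.1 in R 4.3.3 (lmFit and eBayes, two-sided): strain plus genotype over all 24 mice (17 residual degrees of freedom), or contrasts of 12 strain and genotype means (12 degrees of freedom), where a lone WT mouse is assumed to vary like the rest. Adjustment of p-values was by Benjamini and Hochberg's method over all genes, with a threshold of 0.05, and "called" means past it. Errors are SE. Separate averages over prone and over resistant strains were added later, as medians only. Mice, not strains, are the unit unless stated, and p-values measure the spread between these mice. The fit was tested on simulated data. Python 3.11.15, pandas 2.3.3 and matplotlib 3.10.9 made tables and plots. Named genes were Foxj1, Sntn, the largest called changes (12 per class over all strains, 3 each way per strain, 4 each way for prone against resistant), the smallest p-values among strains and each family's mean extremes, with up to 3 called genes per other list. Other genes named were chosen after their values were seen. The members, lists and tests were chosen with earlier results of these data known. Alternatives were quantile normalization, a filter on dim genes, array weights, a trended robust prior, averaged probe sets, a replicate block, equal strain weights, strain means as the unit, and each mouse or strain left out. Precision is limited by the number of arrays, with 1 WT mouse in 5 strains.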

Additional observations from a re-analysis of the deposited data

How the results depend on the processing

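Signs were followed for Foxj1, Sntn and the members named for a largest called change, each in the comparison that named it. None of these log2 differences and neither class median changed sign under any alternative. Signs of the other members, many of them with differences near 0, were not followed. Lower motile axoneme genes over all strains numbered 18, and 10 among genes at or above the median mean (20 of 48 tested), 10 with array weights and 11 with the replicate block. Higher ones numbered 2, and 0, 1 and 1 under the same settings. Lower transport genes numbered 1, and 0 with the replicate block and 2 with equal strain weights. Among the genes at or above the median mean (28 members tested), calls were 17 in A/J and 8 in C57BL/6J. Array weights gave 41 members differing between strains among TG mice, 13 with a strain-dependent effect, 24 for prone against resistant TG mice and 13 for the difference of effects. For the alternatives of this section the share of all genes called is not given here. The counts were therefore not compared with it. With strain means, 0 members passed for prone against resistant (4 at an unadjusted p under 0.05, limma).

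With each mouse or strain left out in turn, lower motile genes numbered 4 to 22, higher ones 1 to 2, lower transport genes 0 to 3 and higher ones 0 to 1. Calls within strains were 21 to 33 in A/J, 5 to 22 in C57BL/6J, 1 to 1 in AKR/J and 0 to 0 in 129, BALB/cJ and C3H. They were 6 to 24 for prone against resistant, 20 to 34 between strains of TG mice, 0 to 13 for strain dependence and 0 to 13 for the difference of effects. Medians ran from -0.19 to -0.09 (motile) and -0.09 to -0.04 (transport). Of the 21 members called over all strains, 12 stayed called with array weights, 12 with the replicate block, 7 without the WT mouse of A/J and 5 without C57BL/6J.

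Mice share only a number, not a stated litter or batch: in C57BL/6J the deviations of same-numbered TG and WT mice correlated at 0.06. With the block in C57BL/6J alone, 24 members were called. Without TG A/J replicate 3 the counts were the highest of those with a mouse left out in A/J, C57BL/6J and all comparisons between strains, and the lowest counts over all strains came without the WT mouse of A/J or strain C57BL/6J. The causes of these shifts were not tested, and a filter or an omission also leaves smaller numbers of genes or mice.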
